A study of Mus musculus with 3 samples.

Results

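The midbrain-hindbrain boundary transcription factors En1, En2, Pax2, Pax5, Pax8 and Otx2 were followed in midbrain RNA of newborn mice. They were taken by gene symbol, and all 6 were found once each among the 49585 genes counted. The study compared a wild-type (WT) group of 1 library with a group of 2 libraries whose genotype is labelled FGR. This short form is not written out anywhere in the labels and is kept as it stands. All 3 libraries came from brains of C57BL/6 mice at postnatal day 3, with the source given as mid-brain and no other allele, treatment, sex or pooling of animals stated. Nothing in the labels ties the FGR pair to separate animals, and the p-values therefore cover only sample-to-sample spread here, which may be technical.

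In the embryo these factors set up the boundary between midbrain and hindbrain, the isthmus, a signalling centre that patterns the tectum, the ventral midbrain and the cerebellum. Otx2, a homeodomain factor of forebrain and midbrain, meets Gbx2 of the hindbrain there. Pax2, Pax5 and Pax8 are paired-domain factors that switch on in sequence around this line, and the engrailed genes En1 and En2, which encode homeodomain factors, are expressed across it under the influence of Fgf8 and Wnt1. After birth the engrailed genes and Otx2 remain active in sets of midbrain neurons, dopamine neurons among them.

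Otx2 and the engrailed genes were higher in both FGR libraries than in WT, while Pax5 and Pax8 did not pass the test and Pax2 was barely detected. En2 rose 1.86-fold, En1 1.45-fold and Otx2 1.33-fold. Of these, Otx2 was counted most deeply (1826 reads in WT) and En1 least (513). The total count of a library lay between 46240262 and 58444481.

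Of the 5 factors that passed the filter on low counts, 3 were called higher and 0 lower by edgeR's quasi-likelihood test at an adjusted p under 0.05. Among all 25561 genes tested, 1.66% were called higher and 2.59% lower. At an unadjusted p under 0.05 the count of factors that were lower was also 0, and DESeq2 and limma-voom called 0 lower. Both FGR libraries lay above WT for 4 of the 5, against 38.5% of all tested genes, and below WT for 0 of the 5, against 38.2%. The median log2 fold change of the 5 was 0.41, against 0.01 for all tested genes. Each gene had 1 residual degree of freedom, from the FGR pair, and the single WT library was taken to vary as they did. edgeR's quasi-likelihood test also borrows from the spread of all tested genes. Its p-values therefore do not rest on each gene's own FGR pair alone.

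**Figure D1:**
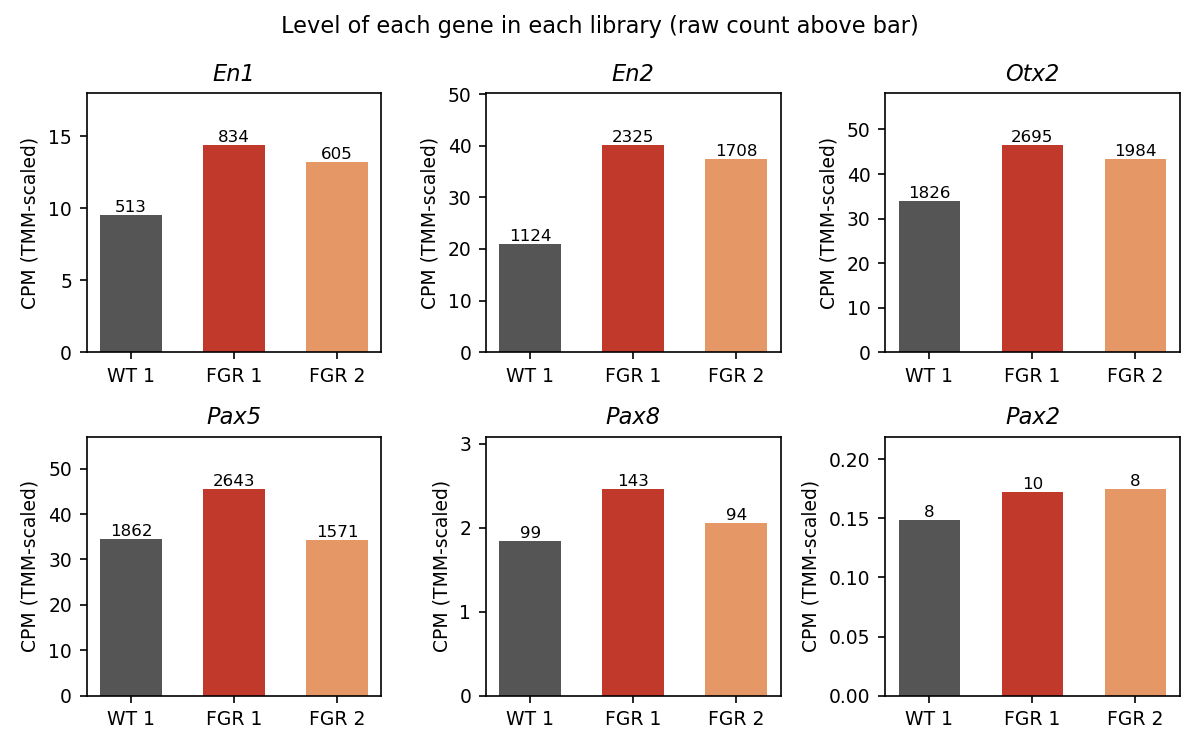
Level of each factor as CPM, the count scaled to a common library size (TMM-scaled, vertical axes from 0, scaled separately for each gene) in the WT library and the 2 FGR libraries, with the raw count above each bar. En1, En2, Otx2 and Pax8 are higher in both FGR libraries, Pax8 only slightly in FGR replicate 2. Pax5 is higher only in FGR replicate 1, and Pax2 is at 8 to 10 reads in every library.

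Promoter sequences of the factors are described first. RefSeq promoter windows of build GRCm38.p6, each with 250 bases before and 50 after a transcription start, were at hand for 5 of the 6 genes (En1, Pax2, Pax5, Pax8 and Otx2). They held 1 start for En1, Pax5 and Pax8, 3 for Pax2 and 4 for Otx2. Each window was searched on both strands for TAATTA, a core bound by many homeodomain proteins, for TAATCC, the core bound by Otx-type homeodomains, and for GCGTGAC, a core of paired-domain sites. The counts do not tell which Otx2 start was in use. Matches stood in the windows below, from 5′ to 3′ on the strand of the gene, with matched letters in capitals. They are at chr1:120602237-120602536 (plus strand) for En1, and at chr14:48667595-48667894 and chr14:48665060-48665359 (minus strand) for Otx2.
En1: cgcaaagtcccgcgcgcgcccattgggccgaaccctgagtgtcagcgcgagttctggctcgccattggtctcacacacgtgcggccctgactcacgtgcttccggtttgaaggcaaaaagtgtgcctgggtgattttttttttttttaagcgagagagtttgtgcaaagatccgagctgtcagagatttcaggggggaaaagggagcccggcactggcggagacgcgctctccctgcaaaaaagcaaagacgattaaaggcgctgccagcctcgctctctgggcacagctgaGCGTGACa
Otx2 first window: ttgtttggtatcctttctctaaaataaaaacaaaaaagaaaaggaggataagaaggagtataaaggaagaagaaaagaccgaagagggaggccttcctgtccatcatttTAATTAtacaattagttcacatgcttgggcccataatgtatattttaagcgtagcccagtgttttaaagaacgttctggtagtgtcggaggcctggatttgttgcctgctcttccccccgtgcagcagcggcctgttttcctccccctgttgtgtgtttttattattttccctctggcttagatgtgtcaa
Otx2 second window: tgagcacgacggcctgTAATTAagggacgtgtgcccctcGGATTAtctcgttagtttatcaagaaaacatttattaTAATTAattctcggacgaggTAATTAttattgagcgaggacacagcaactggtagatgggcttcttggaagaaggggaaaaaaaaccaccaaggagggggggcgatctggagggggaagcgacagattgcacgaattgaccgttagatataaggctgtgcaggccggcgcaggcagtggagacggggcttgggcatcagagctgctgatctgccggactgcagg

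The En1 window held GCGTGAC 43 bases after the start, a match present in 2.09% of all 32851 promoter windows. The first Otx2 window held TAATTA 141 bases before the start. The second held TAATTA at 234, 174 and 154 bases before the start and, 211 bases before it, GGATTA, which is TAATCC on the other strand. TAATTA occurred in 5.29% of all windows and TAATCC in 7.06%. These matches describe letters only, and nothing in the RNA counts shows a protein bound there. CG dinucleotides numbered 23 in the En1 window, 23 in that of Pax5, 7 in that of Pax8, 7, 23 and 30 in those of Pax2 and 6 to 16 in those of Otx2, against a median of 7 over all windows.

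En2, the engrailed gene best known from tectum and cerebellum (ENSMUSG00000039095.8), had 1124 counts in WT and 2325 and 1708 in FGR replicates 1 and 2. Its level was 20.9 CPM in WT, with 40.1 and 37.4 in the FGR pair (mean 38.7 ± 1.92, SD, n = 2). Both FGR libraries were high and close to each other, well apart from WT. On the log2 scale the change was 0.89 ± 0.10 (SE; edgeR adjusted p = 1.31e-04), which ranked 15 among genes with a positive change when ordered by p. The call of En2 held under every scaling, filter and test tried at the threshold of 0.05.

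En1, the engrailed gene needed for the isthmus and for the survival of dopamine neurons (ENSMUSG00000058665.8), had 513 counts in WT and 834 and 605 in FGR. Its level was 9.53 CPM in WT, with 14.4 and 13.2 in the FGR pair (mean 13.8 ± 0.808, SD, n = 2). The groups did not overlap, and the gap from WT to the nearer FGR library exceeded the gap between the FGR libraries. The log2 fold change was 0.54 ± 0.14 (SE), and the adjusted p was 0.0468 by edgeR's quasi-likelihood test, close to the threshold. The En1 call was lost in 4 of 9 alternative fits, among them DESeq2 (adjusted p = 0.245) and scaling by total counts (adjusted p = 0.0520).

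Otx2, the head and midbrain homeodomain gene (ENSMUSG00000021848.15), had 1826 counts in WT and 2695 and 1984 in FGR. Its level was 33.9 CPM in WT, with 46.5 and 43.4 in the FGR pair (mean 44.9 ± 2.16, SD, n = 2). Again both FGR libraries lay above WT, by more than their own gap. The log2 fold change was 0.41 ± 0.08 (SE; edgeR adjusted p = 0.0120). The Otx2 call was lost in DESeq2 (adjusted p = 0.0945) and when only genes at a mean of at least 1 CPM were tested (adjusted p = 0.0600).

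Pax5, the paired-domain gene also known as the B cell commitment factor (ENSMUSG00000014030.15), behaved differently in the FGR pair. It had 1862 counts in WT and 2643 and 1571 in FGR, or 34.6 CPM in WT, with 45.6 and 34.4 in the FGR pair (mean 40.0 ± 7.92, SD, n = 2). FGR replicate 1 was high, and FGR replicate 2 lay just under WT, so the groups overlapped. The log2 fold change of 0.21 ± 0.13 (SE) was not past the threshold (edgeR adjusted p = 0.409), and without FGR replicate 1 it was -0.02. FGR replicate 2 over FGR replicate 1 had a ratio of 0.754 for Pax5 (95% counting interval 0.708 to 0.803), a gap within the FGR group beyond counting error. The same ratio lay beyond counting error, but nearer 1, for En2 (0.932, interval 0.875 to 0.993) and Otx2 (0.934, interval 0.881 to 0.990).

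Pax8, a paired-domain gene also active in thyroid and kidney (ENSMUSG00000026976.15), was a low-level transcript with 99 counts in WT and 143 and 94 in FGR. Its level was 1.84 CPM in WT, with 2.47 and 2.06 in the FGR pair (mean 2.26 ± 0.289, SD, n = 2). Both FGR libraries were above WT, FGR replicate 2 only slightly. Its change of 0.30 ± 0.24 on the log2 scale (SE; edgeR adjusted p = 0.567) was not past the threshold.

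Pax2, in the embryo the earliest of the paired-domain factors at the boundary (ENSMUSG00000004231.15), had 8 counts in WT and 10 and 8 in FGR. Its level was 0.149 CPM in WT, with 0.172 and 0.175 in the FGR pair, under the filter's minimum of 0.189 CPM, and it was not tested in the fit. Summed over FGR, the ratio to WT was 1.17 (95% counting interval 0.483 to 3.10), so a change of 2-fold in either direction was not detectable at this depth. Fitted with no filter on low counts, Pax2 had an edgeR adjusted p of 0.951.

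**Figure D2:**
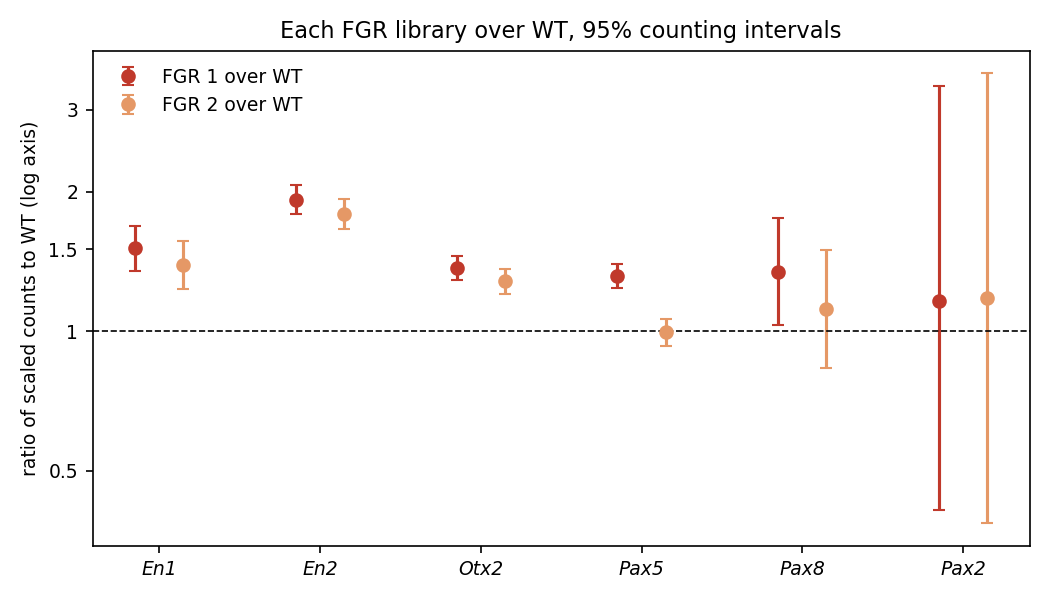
Ratio of each factor's scaled count in an FGR library to that in the WT library (vertical log axis, dashed line at 1), with exact 95% binomial intervals that cover counting error only. The intervals of En1, En2 and Otx2 lie above 1 in both FGR libraries, those of Pax5 and Pax8 only in FGR replicate 1, and that of Pax2 spans 0.412 to 3.38 in FGR replicate 1.

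Counting error alone set narrow bounds for the 3 factors that rose. The ratio to WT of En2 was 1.92 (95% counting interval 1.79 to 2.06) in FGR replicate 1 and 1.79 (1.66 to 1.93) in FGR replicate 2. For En1 it was 1.51 (1.35 to 1.69) and 1.39 (1.23 to 1.57), and for Otx2 1.37 (1.29 to 1.45) and 1.28 (1.20 to 1.36). In each of these genes FGR replicate 1 gave the higher value. Such intervals hold no spread between animals, so they compare these libraries and not the groups.

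Per length of transcript, in RPKM as deposited by the authors (reads scaled to gene length and library total), Otx2 was the most abundant of the factors in every library, at 10.2 in WT and 13.6 and 12.6 in FGR. En2 followed at 6.01 RPKM in WT and 11.2 and 10.4 in FGR. Pax5 (3.98 RPKM in WT, 5.11 and 3.84 in FGR) and En1 (3.70 RPKM in WT, 5.44 and 4.99 in FGR) came next. Pax5 stood above En1 in WT and below it in both FGR libraries. Taken over Otx2 per length, the counting intervals of Pax5 and En1 overlapped in WT (0.367 to 0.418 and 0.329 to 0.401). They also overlapped in FGR replicate 1 (0.357 to 0.397 and 0.370 to 0.433). Only in FGR replicate 2 did they lie apart (0.284 to 0.325 and 0.360 to 0.433). An exchange of places was therefore not resolved. Over the FGR libraries Pax5 had a mean of 4.47 ± 0.898 RPKM and En1 of 5.21 ± 0.320 RPKM (SD, n = 2), means closer than the SD of Pax5. Pax8, at 0.309 RPKM in WT and 0.404 and 0.335 in FGR, and Pax2, at 0.0280 in WT and 0.0316 and 0.0320 in FGR, lay far below. Among the tested genes, the RPKM of Otx2 stood at the 78.0th percentile in WT and that of Pax8 at the 13.9th.

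Ratios of these levels within a library do not depend on how libraries are scaled. En2 over En1 per length was 1.62 in WT (95% counting interval 1.46 to 1.81) and 2.07 (1.91 to 2.24) and 2.09 (1.91 to 2.30) in the FGR libraries. En2 over Otx2 was 0.591 in WT (0.548 to 0.637) and 0.828 and 0.826 in FGR, nearly equal in both. En1 over Otx2 was 0.364 in WT (0.329 to 0.401) and 0.401 and 0.395 in FGR, with overlapping intervals. The balance of En2 to its paralog En1 and to Otx2 differed between the WT and FGR libraries beyond counting error. These differences between libraries were not tested. With 1 WT library against 2 of FGR, an exact permutation test cannot give a one-sided p under 0.333.

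**Figure D3:**
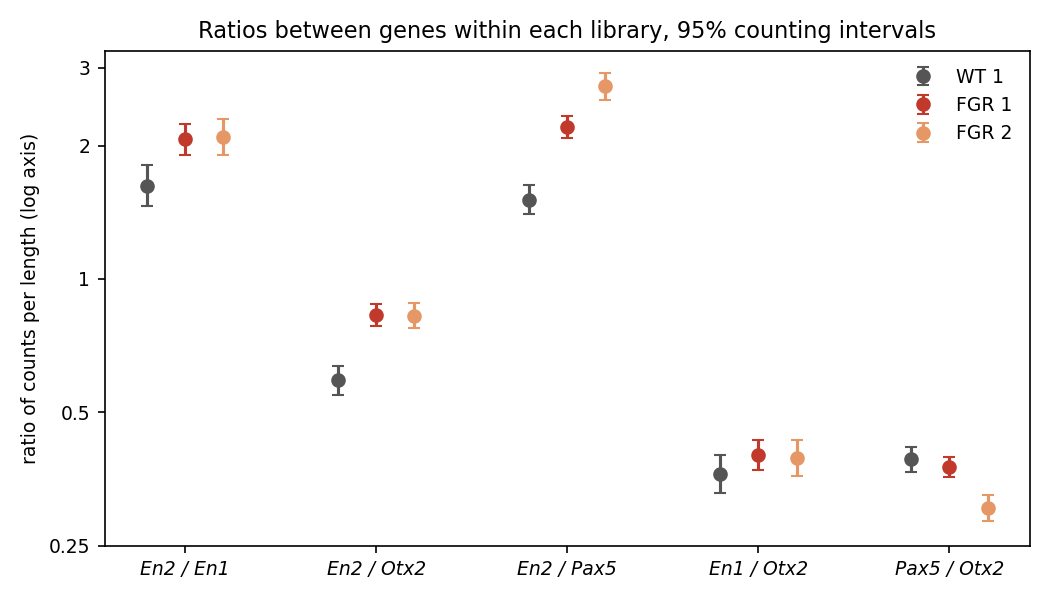
Ratio of counts per length between pairs of factors inside each library (vertical log axis), with exact 95% binomial intervals for counting error. The ratios of En2 to En1 and to Otx2 are about equal in both FGR libraries and lower in WT, and En2 over Pax5 goes from 1.51 in WT to 2.20 and 2.72 in FGR.

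Genes next to the factors on the chromosome were examined by their order in the GENCODE M21 annotation. Cnpy1, which lies beside En2 and whose product promotes FGF signalling at the isthmus, had 1179 counts in WT and 2685 and 2896 in FGR, or 21.9 CPM in WT and 46.3 and 63.4 CPM in FGR. It rose by 1.32 ± 0.14 (log2, SE; edgeR adjusted p = 1.02e-04), while Insig1, a sterol-sensing gene on the other side of En2, went from 124.2 CPM in WT to 130.1 and 133.1 in FGR (edgeR adjusted p = 0.589). Beside Pax5, the zinc knuckle protein gene Zcchc7 rose by 0.34 ± 0.06 (log2, SE; edgeR adjusted p = 0.00966). Exoc5, an exocyst gene beside Otx2, had a log2 fold change of 0.27 ± 0.07 and just missed the threshold (edgeR adjusted p = 0.0501), as did Melk, a mitotic kinase gene on the other side of Pax5, with a log2 fold change of -0.94 ± 0.25 (edgeR adjusted p = 0.0508). Of the other flanking genes, none of the 6 tested was called, among them Insig2 beside En1.

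No source used here says whether counting used the strand, and reads of a factor cannot be told apart from those of antisense genes that overlap it. Otx2os1, the antisense RNA of the Otx2 locus, had 65 counts in WT and 81 and 57 in FGR, far fewer than Otx2. Its log2 fold change was 0.13 ± 0.30 (SE; edgeR adjusted p = 0.868). Opposite Pax5, 5730488B01Rik had 253 counts in WT and 387 and 189 in FGR, high in the same library as Pax5. Gm12462, also opposite Pax5, had 54 counts in WT and 112 and 89 in FGR (edgeR adjusted p = 0.0728). Opposite Pax8, Gm13415 had 31 counts in WT and 66 and 33 in FGR (edgeR adjusted p = 0.403). That was not far below Pax8 itself (99 in WT, 143 and 94 in FGR), and both were highest in FGR replicate 1. Gm43610, opposite En2, had 5 counts in WT and 8 and 13 in FGR, far fewer than En2.

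The isthmus network was described by 23 genes of FGF and Wnt signalling, their feedback inhibitors, partner factors and engrailed targets. Of 22 tested, 1 was called higher (Cnpy1) and 1 lower, and the median log2 fold change was -0.13, with both FGR libraries below WT for 14. Gbx2, the hindbrain partner of Otx2 in the embryo and later a gene of the thalamus, fell from 4.09 CPM in WT to 0.724 and 0.941 CPM in FGR (log2 fold change -2.31 ± 0.25, SE; edgeR adjusted p = 1.27e-04). Of the signals, Fgf8 and Wnt1 were the scarcest: Fgf8 had 1 count in WT and 2 in each FGR library, and Wnt1 had 29 in WT and 22 and 12 in FGR (edgeR adjusted p = 0.529). The other FGF ligands of the list had more reads, and none was called. Fgf15 had 122 counts in WT and 65 and 89 in FGR, Fgf18 71 in WT and 65 and 54 in FGR. Fgf17 had 54 in WT and 33 and 30 in FGR. Map1b, a microtubule-associated protein gene and the most abundant of the list, had 3126 CPM in WT, with 2976 and 2730 in the FGR pair (edgeR adjusted p = 0.692).

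Other Pax and Otx genes were not called in either direction. Of 8, 4 were tested, and the counts at an unadjusted p under 0.05 were 0 higher and 0 lower, as were those called by DESeq2 and limma-voom. Pax7, a tectal factor and the most abundant of them, had 23.1 CPM in WT, with 29.2 and 22.6 in the FGR pair, high in FGR replicate 1 as Pax5 was. Otx1, the paralog of Otx2, had 4.70 CPM in WT, with 4.05 and 4.09 in the FGR pair (edgeR adjusted p = 0.587). Pax6, a gene of forebrain and cerebellar granule cells, had 8.90 CPM in WT, with 7.90 and 18.4 in the FGR pair, high only in FGR replicate 2.

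Markers of the midbrain and of its neighbours were examined as lists. Some genes stood in several lists. Pax3 and Pax7 of the midbrain list were also among the other Pax and Otx genes, and Foxa2 was also a dopamine neuron gene. Lmx1b was in the isthmus, midbrain and dopamine neuron lists. The lists are therefore not independent of each other. Of 12 regional genes of the midbrain, 11 were tested, 2 rose and 0 fell (0 also at an unadjusted p under 0.05 in edgeR, by limma-voom and by DESeq2, which gave an adjusted p for 10), the median log2 fold change was 0.17, and Helt alone was at 0 in a library (FGR replicate 2). Their summed level was 203.1 CPM in WT and 278.3 and 240.1 CPM in FGR. The tectal factor gene Tfap2d rose by 1.15 ± 0.12 (log2, SE; edgeR adjusted p = 1.02e-04), and its relative Tfap2b, the most abundant of the list, by 0.38 ± 0.10 (edgeR adjusted p = 0.0415, lost in DESeq2 at 0.716). Apart from Helt, these markers of the labelled tissue were found in every library, and markers of neighbouring regions were found too.

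Of 13 hindbrain and cerebellum genes, 12 were tested, 4 rose and 0 fell (0 also at an unadjusted p under 0.05 in edgeR and by limma-voom), and the median log2 fold change was 1.15. Their summed level was 13.2 CPM in WT and 23.4 and 26.1 CPM in FGR, with Hoxb2 at 0 in WT and Ptf1a at 0 in FGR replicate 1. Slc6a5, the glycine transporter gene, had 214 counts in WT and 494 and 380 in FGR. Hoxa2 had 2 counts in WT and 52 and 25 in FGR, a ratio of 20.0 (95% counting interval 5.35 to 167.9), and Hoxb3 2 in WT and 19 and 75 in FGR, a ratio of 24.4 (6.57 to 204.4). limma-voom did not call Hoxa2 (adjusted p = 0.0586) or Hoxb3 (adjusted p = 0.239). The median of the list also rests on genes of low count, with Hoxa2, Hoxb3 and Hoxb2 at 2, 2 and 0 counts in WT. DESeq2 called 2 of the list higher and 0 lower but gave no adjusted p for 8 of the 13, Hoxa2 and Hoxb3 among them. Pcp2, a Purkinje cell gene and the most abundant per length, had 2.56 CPM in WT, with 2.43 and 4.57 in the FGR pair.

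Of 13 forebrain genes, 12 were tested, 7 fell and 1 rose, and the median log2 fold change was -3.53. Their summed level was 52.6 CPM in WT and 38.3 and 32.9 CPM in FGR, with Six6, Rax, Dlx5 and Fezf2 at 0 in FGR replicate 1. The ventral forebrain factor genes Dlx1 (418 counts in WT, 9 and 4 in FGR) and Nkx2-1 (263 in WT, 4 and 2 in FGR) and the hypothalamic gene Sim1 (541 in WT, 105 and 85 in FGR) were among those that fell. Six6, a gene of eye and hypothalamus, had 88 counts in WT and 0 in both FGR libraries, at least 56.5-fold lower against a floor of 3 counts over the group. Lhx2, which is also expressed in the tectum, was the one that rose, from 14.2 CPM in WT to 24.2 and 19.2 CPM in FGR (edgeR adjusted p = 0.0298, lost in DESeq2 at 0.0779). The fall was not shared by the whole list. Both FGR libraries lay below WT for 9 of the 12 tested and above it for 3, which were Lhx2, Six3 and Emx2. Six3 had 5.61 CPM in WT, with 6.28 and 6.37 in the FGR pair (edgeR adjusted p = 0.628). Emx2 had 4.70 CPM in WT, with 5.29 and 4.88 in the FGR pair (edgeR adjusted p = 0.783). limma-voom called 7 of the list lower and 1 higher. DESeq2 called 2 lower and 0 higher but gave no adjusted p for 8 of the 13, Six6 and Nkx2-1 among them. The median of the list lay between 2 genes of low count, Dlx5 (20 counts in WT, 0 and 3 in FGR) and Dlx2 (25 in WT, 2 and 2 in FGR).

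Dopamine neurons and choroid plexus also express En1 or Otx2, and their other marker genes were examined for that reason. Of 11 dopamine neuron genes, all tested, 5 fell and 0 rose, the median log2 fold change was -0.40 and the summed level was 194.5 CPM in WT and 147.8 and 149.1 CPM in FGR, with none at 0. At an unadjusted p under 0.05, 1 was higher in edgeR (the vesicular monoamine transporter gene Slc18a2), and limma-voom and DESeq2, which gave no adjusted p for 1, called 0 higher. Slc6a3, the dopamine transporter gene, fell from 47.5 CPM in WT to 17.8 and 22.3 CPM in FGR (log2 fold change -1.25 ± 0.12, SE; edgeR adjusted p = 4.21e-05). The factor genes Foxa1, Lmx1a and Nr4a2 fell by 1.32, 0.82 and 0.66 on the log2 scale. Aldh1a1, the retinaldehyde enzyme gene and the most abundant per length on average over the libraries, fell by 0.45. These 4 calls were lost in DESeq2. The factor genes Foxa2, Lmx1b and Pitx3 were not called (log2 fold changes -0.14, -0.13 and -0.38). Both FGR libraries lay below WT for 9 of the 11 genes and above it for 1. Of 10 choroid plexus genes, edgeR and limma-voom tested all and called 0, and DESeq2 called 0 but gave no adjusted p for 5. Ttr, the transthyretin gene, was the 1 at an unadjusted p under 0.05 in edgeR, with 36 counts in WT and 73 and 194 in FGR (log2 fold change 2.01; edgeR adjusted p = 0.0561). Their summed level was 25.3 CPM in WT and 24.0 and 27.0 CPM in FGR, or 24.7 in WT and 22.7 in each FGR library without Ttr, and Kcnj13, a potassium channel gene and the most abundant per length on average over the libraries, had 3.62 CPM in WT, with 2.19 and 3.35 in the FGR pair.

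**Figure D4:**
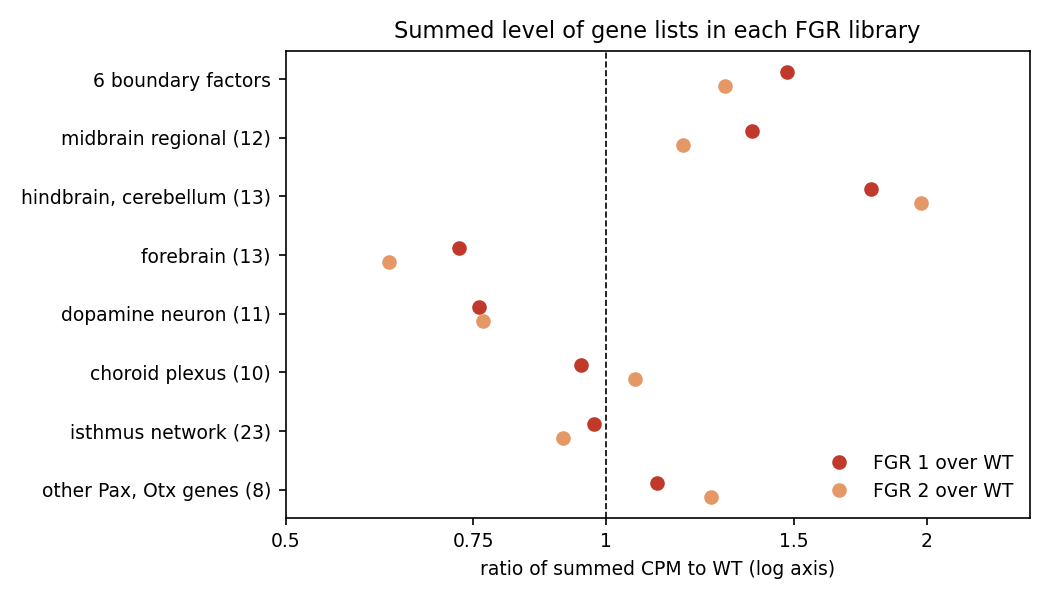
Ratio of the summed CPM of each gene list in an FGR library to that in WT (horizontal log axis, dashed line at 1), with the number of genes in each list. The boundary factors (1.48 and 1.29) lie near the midbrain list (1.37 and 1.18, most of that rise being Tfap2b and Tfap2d), the hindbrain list above (1.77 and 1.98) and the forebrain list below 1 (0.727 and 0.625, and lower without Lhx2). Most of the isthmus network sum is Map1b.

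Summed over the 6 boundary factors, the level was 100.9 CPM in WT and 149.1 and 130.6 CPM in FGR, or 1.48 and 1.29 times WT. For the midbrain list the same ratios were 1.37 and 1.18, for the hindbrain and cerebellum list 1.77 and 1.98, and for the forebrain list 0.727 and 0.625. Without Tfap2b and Tfap2d the midbrain ratios were 1.18 and 1.07, and without Lhx2 the forebrain ratios were 0.367 and 0.358, both left out after their values were seen. The part of these regional shifts in the rise of En1, En2 and Otx2 was not tested. With bulk tissue, more cells of a type cannot be told apart from more RNA per cell, and a difference in how the lone WT midbrain was dissected cannot be separated from genotype.

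The genes most like each factor in their pattern were those with the smallest Euclidean distance between the log2 ratios of the 2 FGR libraries to WT, over 14283 candidates at a mean of at least 1 CPM. With 3 libraries this measure rests on only 2 values for a gene, and many genes come close by it. For En2 the nearest were Amy2a5, Trappc10 and Pou4f2 (distances 0.0378, 0.0489 and 0.0600), and 6 candidates lay within 0.1. For En1 they were Rai2, Etfbkmt and Coq3, with 49 within 0.1, and for Otx2 Zfp239, Zfp697 and Atad2b, with 178. For Pax5 they were Zfp575, BC021891 and Spsb2, with 32 within 0.1, and for Pax8 Rpusd2, Lag3 and Uxs1, with 140. En2 had fewer genes within this distance than the other 4 factors, and it also had the largest fold change of them. Such a count depends on how many candidates change by a like amount, so it does not set the pattern of En2 apart.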

How the data were processed

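RNA from midbrain was sequenced in 1 WT and 2 FGR libraries, prepared with a TruSeq RNA kit per the labels' protocols. The aligner was HISAT2, per the submitters' processing notes; neither its version nor the genome build, the counting tool or the strand setting is given in the sources used here. The authors deposited a raw count, a length and an RPKM value for each of 49585 genes, and the deposited RPKM equalled count over length and total to within 5e-04 percent.

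FGR was compared with WT in edgeR 4.0.16 (R 4.3.3). Genes were kept by filterByExpr at a minimum count of 10, libraries were scaled by TMM, and the quasi-likelihood F test was two-sided, with Benjamini-Hochberg adjustment over 25561 genes and a threshold of 0.05. CPM values are TMM-scaled; log2 ratios of single libraries used a prior count of 2. Standard errors are the log2 fold change over the square root of F. Intervals are exact 95% binomial (Clopper-Pearson) and, like floors of 3 counts, cover counting error only. Tested on simulated data for FGR against WT (24979 genes), the fit found 50.7% of 67 genes shifted 1.5-fold and 82.1% of those shifted 2-fold, and made 9 wrong calls. Alternatives used DESeq2 1.42.0, limma 3.58.1, other scalings and filters, and removal of each FGR library. A fit of protein-coding genes alone was chosen after seeing the data.

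The factors, lists and naming rule were chosen with earlier results of these data known. The rule named the 6 factors, in each list the called genes with the 4 smallest p-values and the gene with the most counts per length, and the 3 nearest patterns of each factor. Some genes of these lists are not reported here. Genes named beyond the rule were chosen after their values were seen. GENCODE M21, whose identifiers matched 49326 genes, gave gene types and neighbours only, and RefSeq gave promoters.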

Additional observations from a re-analysis of the deposited data

How the results depend on the processing

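En2 was past the threshold of 0.05 in 9 of 9 alternative fits (log2 fold change 0.85 to 0.91, adjusted p 6.42e-14 to 0.0159), Otx2 in 7 of 9 (adjusted p 8.25e-04 to 0.0945), En1 in 5 of 9 (adjusted p 0.0115 to 0.245), and Pax5 and Pax8 in 0 of 9. The log2 fold change of En1 was 0.50 with total count scaling (adjusted p = 0.0520), 0.53 when only genes at a mean of at least 1 CPM were tested (adjusted p = 0.103), 0.53 in DESeq2 (adjusted p = 0.245) and 0.55 over protein-coding genes only (adjusted p = 0.0563). That of Otx2 was 0.40 with the stricter filter (adjusted p = 0.0600) and 0.40 in DESeq2 (adjusted p = 0.0945). The factors called higher numbered 1 with the stricter filter, 1 in DESeq2 and 1 at a threshold of 0.01, against 3 in the reported fit, and 2 with total count scaling and with protein-coding genes alone. The cause of these losses was not tested. No alternative called a factor lower. Leaving out each FGR library gave values with no test: 0.46 to 0.59 for En1, 0.83 to 0.94 for En2, 0.35 to 0.45 for Otx2, 0.15 to 0.42 for Pax8, and -0.02 (without FGR replicate 1) to 0.40 for Pax5, whose direction rested on that library. Over all genes, 424 were called higher and 663 lower in the reported fit, 332 and 1027 with total count scaling, 695 and 1362 with no filter, 100 and 201 with the stricter filter, 124 and 233 in DESeq2, and 113 and 256 at a threshold of 0.01. No paired analysis was possible because the labels tie no WT library to an FGR library and WT has only 1. Depth limits Pax2, at 8 to 10 reads a library.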
